A study of Homo sapiens with 8 samples.

Results

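The cytosolic ribosomal protein genes encode the protein part of the ribosome that translates nuclear-encoded messages. Members were the protein-coding genes whose GENCODE symbol starts with RPL, RPS or RPLP and a number, together with RPSA. Symbols with a hyphen (read-through genes), the RPS6K kinases, RPS19BP1 and Y-linked copies were left out. This gave 85 genes of the 69215 listed, 32 of the small and 53 of the large subunit. They comprised 77 core genes and 8 paralogues, RPL3L, RPL7L1, RPL10L, RPL22L1, RPL26L1, RPL36AL, RPL39L and RPS27L. RNA was sequenced from G401, an established rhabdoid kidney tumor line. It has lost SMARCB1, which encodes a core subunit of the mSWI/SNF chromatin remodeling complexes. The cells carried a Tet-On cassette for SMARCB1 or, as control, for GFP, and doxycycline (Dox) turns it on. Both lines received 0.1 µg/ml Dox or the solvent DMSO for 12 h, which gave the groups SMARCB1 DMSO, SMARCB1 Dox, GFP DMSO and GFP Dox with 2 libraries each. Every condition pooled several plates of one engineered line, and whether replicates were independent cultures is not given, so p-values measure the spread between these libraries, which may be technical. No label says how either line was selected.

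A ribosome holds one copy of most of these proteins, and cells make them in matched amounts. Their mRNAs are short and abundant, and most begin with a terminal oligopyrimidine (TOP) tract, a C at the cap followed by a run of pyrimidines, through which mTORC1 and LARP1 set their translation. Paralogues such as RPL22L1 and RPL39L encode close relatives of a core protein, and in some tissues they take its place in the ribosome.

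The TOP tract was visible in the reference around the start sites. RefSeq starts on GRCh38.p14 were found for 68 of the 85 genes. A C at an annotated start followed by at least 4 pyrimidines was present in 47 of these 68 genes (69.1%), against 5.14% of all genes with a start. Among core genes it was 46 of 62 (74.2%), and among paralogues 1 of 6, RPL22L1. Allowing the run to begin within 5 bases of the start gave 80.9% against 25.2%. The sequences of 3 paralogues, their partners, RPL39 and RPL38 show the range of starts, since these genes recur in the comparisons. Each has 25 bases before the start and 20 from it, read along the transcribed strand, with the pyrimidine run that begins at the annotated start in capitals.
RPL22 (chr1:6199576-6199620, minus strand): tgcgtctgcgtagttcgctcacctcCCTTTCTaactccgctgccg
RPL22L1 (chr3:170870176-170870220, minus strand): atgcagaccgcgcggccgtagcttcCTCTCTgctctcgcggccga
RPS27 (chr1:153990737-153990781, plus strand): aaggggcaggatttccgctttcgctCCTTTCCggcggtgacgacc
RPS27L (chr15:63157458-63157502, minus strand): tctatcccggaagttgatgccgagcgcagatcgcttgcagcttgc
RPL36A (chrX:101390986-101391030, plus strand): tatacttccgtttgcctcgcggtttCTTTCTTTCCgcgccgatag
RPL36AL (chr14:49620607-49620651, minus strand): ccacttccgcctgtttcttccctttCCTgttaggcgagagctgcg
RPL39 (chrX:119791611-119791655, minus strand): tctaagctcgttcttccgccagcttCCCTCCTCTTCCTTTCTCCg
RPL38 (chr17:74203653-74203697, plus strand): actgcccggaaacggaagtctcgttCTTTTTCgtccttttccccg
The run was 7 bases in RPL22 and 6 in RPL22L1, 7 in RPS27 and absent in RPS27L, and 10 in RPL36A and 3 in RPL36AL. RPL39 carried the longest run of those shown, with 19 pyrimidines. CCGGAAG, a core letter string of ETS factor motifs, occurred on either strand of the 300-base window of 35.3% of the ribosomal protein genes with a start and of 12.2% of all genes. The string CACGTG was found in 7.35% against 8.77%, and TATAAA in 10.3% against 14%. These are letter matches in a window from 250 bases before to 50 after a start, and no factor was measured.

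Libraries held 29632090 to 37597477 counts in genes. SMARCB1, the induced gene, was at 0.343 and 0.637 CPM (TMM-scaled counts relative to library size) before induction and at 856 and 841 CPM after it. No count of SMARCB1 was found in any GFP library, at a floor of 3 counts, or at most 0.101 CPM. VIM, an intermediate filament gene of mesenchymal cells, was at 678 to 1310 CPM, whereas PTPRC, PECAM1, ALB, GFAP and UMOD, which mark other cell types, stayed at or below 0.0782 CPM. The first SMARCB1 DMSO library stood apart, with 27.9% of its counts on mitochondrially encoded genes against 18.9% to 23.9% elsewhere. Its TMM factor was 0.907, whereas the others ran from 0.978 to 1.04. The main medians, and some of the counts, that rest on SMARCB1 DMSO are therefore also given without it.

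Ribosomal protein genes took a small share of each library. For the GFP line, the share was 2.55% and 2.49% with DMSO and 2.61% and 2.53% with Dox. For the SMARCB1 line, it was 2.52% and 2.83% with DMSO and 2.84% and 2.75% with Dox. The first SMARCB1 DMSO library fell among the GFP libraries, so the groups overlapped. Over counts without the mitochondrially encoded genes, the SMARCB1 line had shares of 3.5% and 3.72% with DMSO and of 3.69% and 3.5% with Dox. On the same base, the GFP line had 3.25% and 3.15% with DMSO and 3.22% and 3.2% with Dox, so that the SMARCB1 libraries lay above the GFP libraries without overlap. A share of 2 against 2 libraries was not tested. The share of mitochondrial counts was 21.3% to 27.9% in the SMARCB1 line and 18.9% to 21.5% in the GFP line, with overlap. Its part in the difference between the lines was not tested beyond this change of base.

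**Figure D1:**
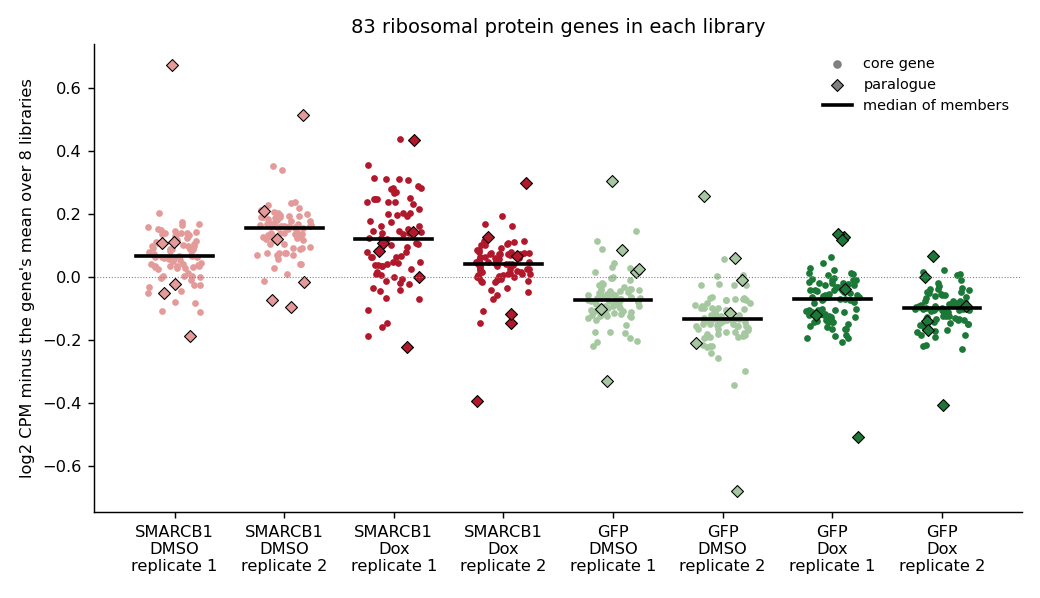
Level of each of the 83 ribosomal protein genes tested in each of the 8 libraries, as log2 CPM minus the mean of that gene over all libraries (y axis). Circles are core genes, diamonds are paralogues and bars are medians, which lie at 0.07, 0.16, 0.12 and 0.04 in the SMARCB1 libraries and between -0.13 and -0.07 in the GFP libraries.

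Levels of core genes spanned a wide range. Mean CPM over the 8 libraries ran from 9.72 for RPS10 to 2170 for RPS2, with a median of 255, and 58 of 77 core genes reached 100 CPM. RPS2 and RPS3 line the mRNA entry channel of the small subunit. Per kb of the representative transcript, RPS2 was highest with 2300 CPM per kb, followed by RPS25 with 1230 and RPS3A with 1220. RPS25 and RPS3A were closer to each other than to RPS2. When all annotated exons gave the length, RPS3A ranked 2 with 465 CPM per kb and RPS25 ranked 4 with 401, with RPL29, a large subunit gene named here after its values were seen, between them at 440. RPS2 stayed first with either exon length or coding length. At the other end were RPS27L with 7.86 CPM per kb, RPL3L and RPL10L. RPL10L, known from the testis, had 0 counts in every library, and RPL3L, known from heart and skeletal muscle, had 1 count in each of 2 libraries, both at or under the floor of 3 counts. These 2 paralogues did not pass the expression filter, which left 83 of 85 genes to test. RPS27L lay at the bottom because its transcript of 6110 bases carries a coding part of 252 bases, and per coding length it ranked 68 of 85. The order of core genes per kb was nearly the same in all groups, with a Spearman rho of at least 0.996 between groups over 77 genes.

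Some of these levels rest on reads that could be split. Another gene overlapped the exons of 23 core genes. The overlap covered 96.9% of the RPL17 transcript and 84% of that of RPS10, where read-through genes share the exons, and 59% of RPL38 and 53.7% of RPL10, where the neighbor lies on the opposite strand. Reads shared by overlapping genes were not counted for either, so the low level of RPS10 is a lower limit, and without the strand option the neighbors of RPL38 and RPL10 cannot be told apart from them. Ribosomal protein pseudogenes were many, with 1599 listed and 643 with a count. They held 1.68% to 2.08% as many counts as the genes themselves. Reads that mapped to several places, 7.62% to 8.54% of a library, were not assigned to any gene, so levels of genes with near-identical copies are uncertain.

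Re-expression of SMARCB1 left nearly all ribosomal protein genes without a call. In SMARCB1 Dox against SMARCB1 DMSO, 0 of 83 were called higher and 1 was called lower, where 8.33% and 5.69% of all 15931 genes tested were (edgeR quasi-likelihood test, Benjamini-Hochberg adjusted p under 0.05). At an unadjusted p under 0.05, the numbers were 0 and 6, against 14% and 12.1% of all genes. The median log2 fold change was -0.03 over the 83 genes and 0.00 over all genes. It was also -0.03 over the 1990 genes of at least 100 CPM, of which 134 were called higher and 209 lower. Within 0.2 of 0 lay 78 of 83 members, 1449 of these 1990 genes and 8302 of all 15931. The range over the 83 genes was -0.26 to 0.14, with a median standard error of 0.0816 per gene. DESeq2 also called 1 gene, the same one. The sign of the members' median was not fixed by the data, since it was 0.07 with scaling to library totals, where all genes moved to 0.09. It was 0.02 without the second SMARCB1 DMSO library, 0.01 without the second SMARCB1 Dox library and -0.06 without the first SMARCB1 DMSO library.

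The gene called was RPL22, a large subunit protein best known as the RNA-binding partner of viral EBER RNA and for binding its own paralogue's transcript. RPL22 went from 88.7 and 95 CPM with DMSO to 74.6 and 79.3 CPM with Dox for the SMARCB1 line. For the GFP line, it went from 85.8 and 86.6 CPM to 79.3 and 78.3 CPM. The values were lower with Dox in both lines, and in neither did Dox and DMSO overlap. The log2 fold change was -0.26 ± 0.0786 (SE) on SMARCB1 (edgeR adjusted p = 0.0317) and -0.13 on GFP (edgeR adjusted p = 1). Their difference of -0.13 did not pass the test (edgeR adjusted p = 0.657). The call on RPL22 was thin. It was lost with scaling to library totals, without the expression filter, with only the 4 libraries compared, and without the second SMARCB1 DMSO or the first SMARCB1 Dox library, at edgeR adjusted p between 0.0637 and 0.263. It was kept without the first SMARCB1 DMSO library.

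Its paralogue RPL22L1 had values in the same direction that did not pass the test. In the SMARCB1 line it was at 35.3 and 34.2 CPM with DMSO and at 31.3 and 27.8 CPM with Dox, a log2 fold change of -0.23 ± 0.0908 (edgeR adjusted p = 0.0954). In the GFP line it went from 45.1 and 43.7 CPM to 39.9 and 38.3 CPM, a log2 fold change of -0.18 (edgeR adjusted p = 1). RPL35A with -0.24 (edgeR adjusted p = 0.0586) and RPL34 with -0.21 (edgeR adjusted p = 0.0964), which encode large subunit proteins, were also among the lowest, as was the paralogue RPL39L, described with its pair. The values of RPL35A and RPL34 did not overlap between Dox and DMSO. RPL35A measured 143 and 152 CPM against 118 and 132 CPM with Dox, and 122 to 131 CPM over the GFP libraries. RPL34 measured 221 and 237 CPM against 190 and 208 CPM. Over all 83 genes, 24 were lower in both SMARCB1 Dox libraries than in both SMARCB1 DMSO libraries and 3 were higher in both, where 25.2% and 25.9% of all genes were.

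The proteins that the study discusses from SMARCB1 pull-downs include those of RPS3, RPS13 and RPS15A, and it names that of RPS2 from SMARCA4 pull-downs. The RNA of these genes was not called. RPS2 measured 2320 and 2300 CPM before and 2360 and 2330 CPM after induction, a log2 fold change of 0.02 ± 0.0805. RPS3 measured 305 and 318 CPM against 322 and 301 CPM, a change of 0.00 ± 0.0797. RPS13 and RPS15A differed by -0.16 ± 0.0791 and -0.11 ± 0.0784 (edgeR adjusted p = 0.215 and 0.436). The genes of the 5S RNP, which binds MDM2 when ribosome assembly stalls, were at -0.08 for RPL5 and -0.04 for RPL11. The stalk genes, whose products recruit translation factors, were at 0.03 for RPLP0, 0.13 for RPLP1 and 0.12 for RPLP2. Of the genes whose products line the exit tunnel, RPL4 was at -0.02, RPL17 at -0.19 and RPL39 at -0.15. None of these passed the test with all libraries, the smallest edgeR adjusted p being 0.156, that of RPL17. RPLP1 depended on single libraries. It was called higher at 0.31 without the second SMARCB1 Dox library (edgeR adjusted p = 0.0343) and was at -0.07 without the first.

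Dox alone was measured in the GFP line. There, edgeR called 0 of 83 genes, and DESeq2 called 0, where 0% of all genes were called. At an unadjusted p under 0.05, 0 were higher and 0 lower, against 0.741% and 0.929% of all genes. The median log2 fold change was 0.02 and the range -0.18 to 0.12. The lowest was RPL22L1, described above. The difference between the Dox effects of both lines was called for 0 of 83 genes by edgeR and by DESeq2, where 4.71% of all genes were called, 3.07% higher and 1.64% lower. At an unadjusted p under 0.05, 0 were higher and 1 was lower, RPL35A, against 9.02% and 7.16% of all genes. Its difference was -0.26 (edgeR adjusted p = 0.254). The range over the 83 genes was -0.27 to 0.20 with a median standard error of 0.115. No difference within this range passed the test, so differences of this size could not be told from 0 for a single gene.

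**Figure D2:**
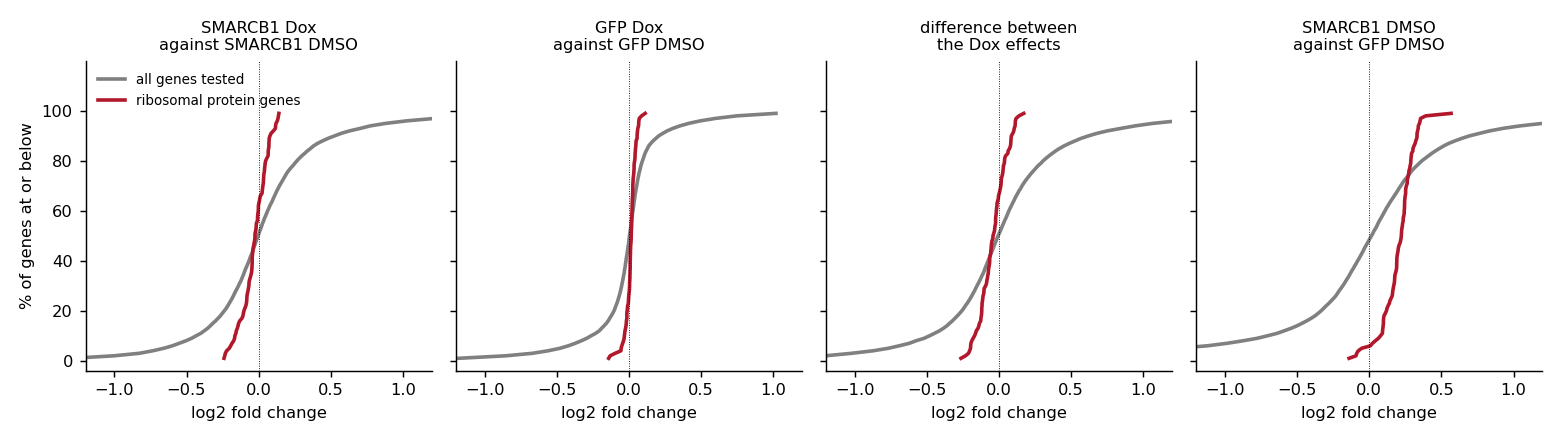
Cumulative share of genes (y axis, %) against log2 fold change (x axis, shown from -1.2 to 1.2) for all 15931 genes tested (grey) and the 83 ribosomal protein genes (red) in the 4 comparisons, drawn from the 1st to the 99th percentile. The red curve is narrow and near 0 for Dox in either line and for the difference between the Dox effects, and it lies to the right of 0 in the comparison of the lines, where the median is 0.22 against 0.015 for all genes.

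Small as they were, the values in the SMARCB1 line were ordered by base composition. Of the 47 core genes with an exon GC content under 50%, 39 had a negative log2 fold change on Dox, with a median of -0.05. Of the 30 with 50% or more, 22 had a positive one, with a median of 0.04. Across the 77 core genes, Spearman's rho between GC content and log2 fold change was 0.54, and over all genes it was 0.25. Genes share libraries and are not replicates, so this is a description. Between single libraries of SMARCB1 Dox and SMARCB1 DMSO rho ran from 0.25 to 0.54, and between replicates of the same group it ran from -0.35 to 0.33. After correction for GC and length over all genes, rho was -0.10, and RPL22 was still the 1 gene called. Without the first SMARCB1 DMSO library rho was 0.45, but the sign of the GC-rich genes was not kept, since 11 of 30 were then positive, with a median of -0.012, and 41 of the 47 others were negative, with a median of -0.095. Without the first SMARCB1 Dox library 9 of the 30 were positive and rho was 0.47. For the GFP line, rho was 0.02. Between the lines without Dox it was 0.02 as well, and there the same correction moved it to 0.55.

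**Figure D3:**
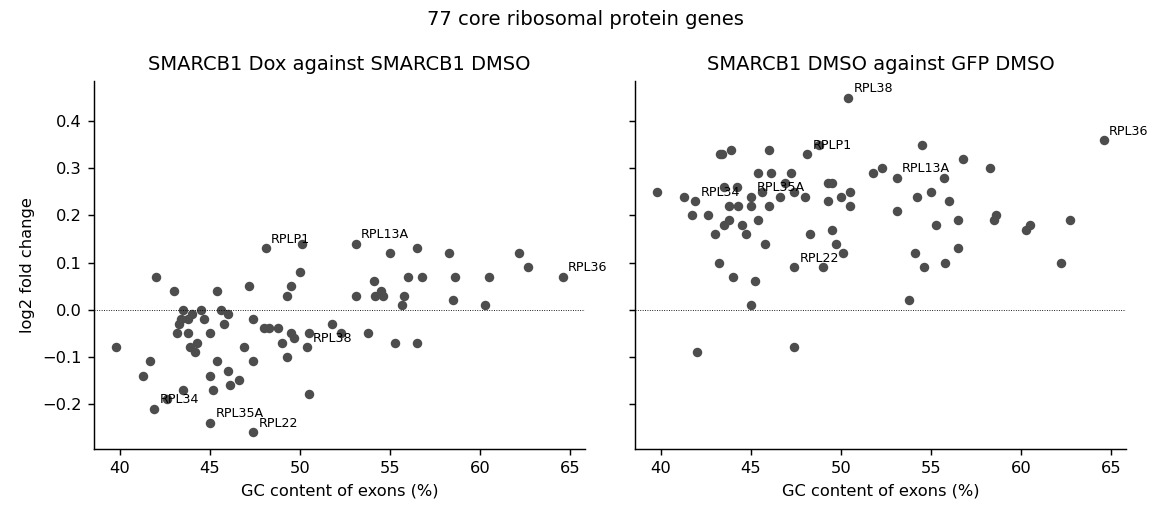
log2 fold change (y axis) against GC content of the exons (x axis, %) for the 77 core ribosomal protein genes, each point a gene, on Dox in the SMARCB1 line (left) and between the lines without Dox (right). Spearman's rho is 0.54 on the left and 0.02 on the right, and RPL22, RPL35A and RPL34 are the lowest points on the left.

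The lines themselves differed more than Dox changed either. In SMARCB1 DMSO against GFP DMSO, 43 of 83 genes (51.8%) were called higher and 1 was called lower, where 16.3% of all genes were called higher and 15.7% lower (edgeR, adjusted p under 0.05). Among the 1990 genes of at least 100 CPM, 23.9% were called higher. The differences were small. The median log2 fold change was 0.22, or 16.6% higher, against 0.015 over all genes, and 78 of 83 were positive. Values of 69 genes were higher in both SMARCB1 DMSO than in both GFP DMSO libraries, where 33.1% of all genes were, and 2 were lower in both, where 31.6% were. Over all 4 SMARCB1 against all 4 GFP libraries, 57 genes were higher in every library and 1 was lower, where 20% and 19.4% of all genes were. This comparison shares its SMARCB1 DMSO libraries with the Dox comparison above and its GFP DMSO libraries with that in the GFP line.

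The number of calls was less certain than the shift. With scaling to library totals, which leaves the higher mitochondrial share in place, edgeR called 3 genes higher and 1 lower. All genes then had a median of -0.10 and the ribosomal protein genes one of 0.11, with 67 of 83 positive. With totals that leave out mitochondrially encoded genes, 30 genes were called higher and the medians were 0.19 for them and -0.015 for all genes. DESeq2 called 45 genes higher. After the GC and length correction edgeR called 38 genes, of which 26 were among the 44 called without it. Many calls were lost without the first or second GFP DMSO library or without the second SMARCB1 DMSO library. Each of these fits leaves 1 library in a group. Without the second GFP DMSO library a smaller share of members than of all genes was called higher, and the median was 0.186. Without the first SMARCB1 DMSO library, which stood apart, the median was 0.26. The median lay between 0.185 and 0.256 over these 4 omissions. Since each line is a single engineered population, the transgene, the line and its handling cannot be told apart here.

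**Figure D4:**
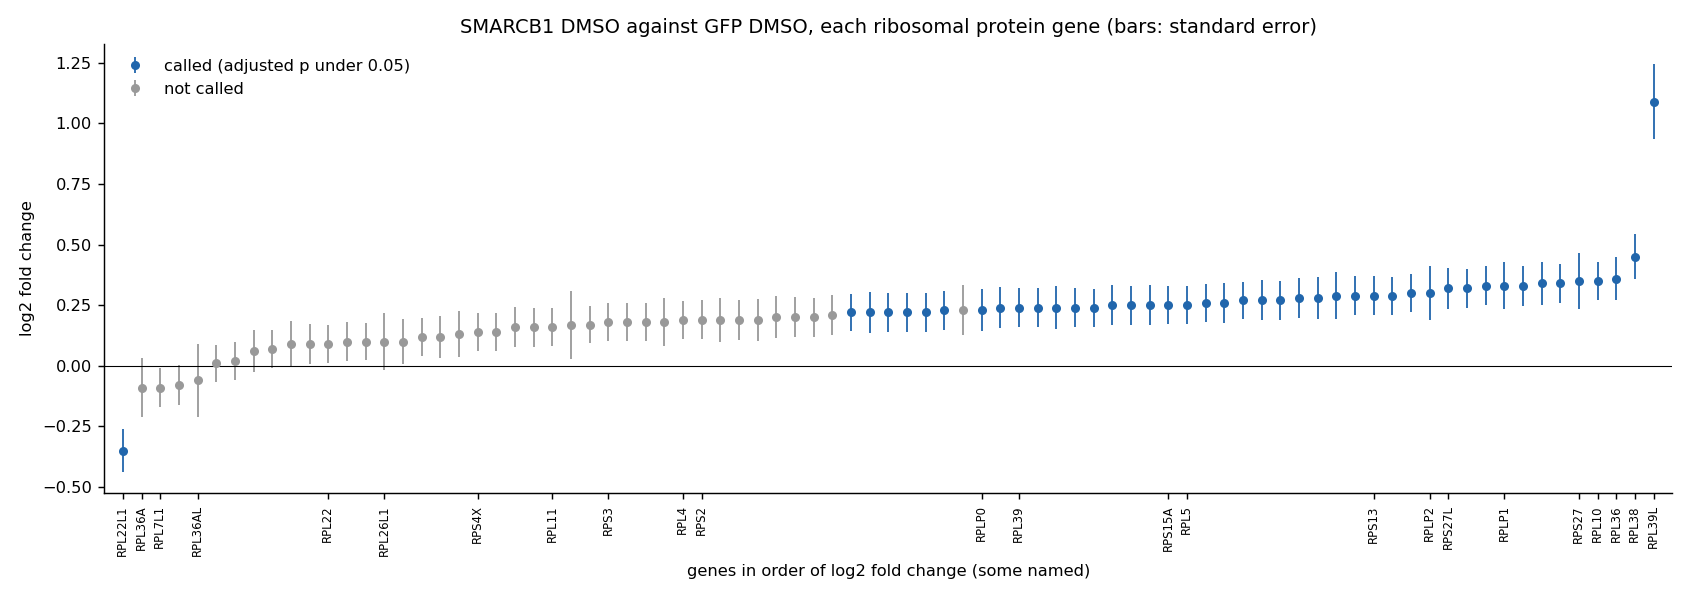
log2 fold change in SMARCB1 DMSO against GFP DMSO (y axis) for the 83 ribosomal protein genes in order (x axis), with standard errors as bars and names for some of the genes described here. Blue points passed the test, 43 above 0 and RPL22L1 below, while RPL39L lies far above the rest at 1.09 and the core genes lie between -0.09 and 0.45.

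Among core genes, 41 of 77 were called higher and 0 lower, with a median of 0.22. At an unadjusted p under 0.05 (edgeR), 55 were higher and 0 lower, against 20.9% and 20% of all genes. DESeq2 called none of the core genes lower. By subunit, 14 of 31 small and 27 of 46 large subunit genes were called. By start, 25 of 46 genes with a TOP start and 7 of 16 without were called, with medians of 0.23 and 0.20. By intron content, 17 of 28 genes that host small nucleolar RNAs and 24 of 49 that host none were called. None of these splits was tested, and their medians lay between 0.192 and 0.245. Without the first SMARCB1 DMSO library, 14 small and 26 large subunit genes were called, 24 with a TOP start and 8 without. RPL38, whose protein is known for its part in Hox mRNA translation and skeletal patterning, had the largest core difference. RPL38 measured 79.4 and 95.1 CPM in SMARCB1 DMSO and 66.6 and 61.1 CPM in GFP DMSO, a log2 fold change of 0.45 ± 0.0927 (edgeR adjusted p = 6.13e-04). SMARCB1 Dox, at 86.4 and 78.9 CPM, and GFP Dox, at 72.0 and 66.6 CPM, did not overlap either.

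RPL36, RPL10 and RPS27 followed. RPL36 was at 41.1 and 45.5 CPM against 35.4 and 32.3 CPM, a log2 fold change of 0.36 ± 0.0904 (edgeR adjusted p = 0.00388). RPL10, an X-linked gene whose protein joins the large subunit late in assembly, was at 631 and 649 CPM against 499 and 503 CPM, a change of 0.35 ± 0.0781 (edgeR adjusted p = 0.00126). RPS27 was at 25.3 and 32.3 CPM against 24.0 and 21.4 CPM, a change of 0.35 ± 0.116 (edgeR adjusted p = 0.024). The values of all 3 genes were higher in both SMARCB1 libraries. RPL38 and RPL10 were called under all 13 alternatives. RPL36 was lost under 3 and RPS27 under 6, among them scaling to library totals and omission of the second SMARCB1 DMSO library, without which RPS27 had a log2 fold change of 0.16.

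The role groups were mostly part of the same shift. The 5S RNP gene RPL5 was called higher at 0.25, with 540 and 561 CPM against 462 and 467 CPM, and RPL11, at 0.16, was not called. All 3 stalk genes were called, RPLP0 at 0.23, RPLP1 at 0.33 and RPLP2 at 0.30. Of the tunnel genes, RPL39 was called at 0.24, and RPL4 at 0.19 and RPL17 at 0.20 were not. DESeq2 called RPL4 (adjusted p = 0.038). Of the X-linked genes, RPL10 and RPL39 were called, while RPS4X at 0.14 and RPL36A at -0.09 were not. Among the pull-down proteins, RPS13 at 0.29 and RPS15A at 0.25 were called, and RPS2 and RPS3, at 0.19 and 0.18, were not. RPS2 was called by DESeq2 (adjusted p = 0.0171) and by edgeR after the GC and length correction, at 0.33 (adjusted p = 0.00211). The same settings also removed calls. DESeq2 did not call RPLP2 (adjusted p = 0.101). After the correction RPLP0, RPL39 and RPS15A were lost, at 0.17, 0.13 and 0.17 (edgeR adjusted p = 0.106, 0.199 and 0.079). With totals that leave out mitochondrially encoded genes, RPLP0, RPLP2 and RPL39 were lost. With only the 4 libraries compared, RPLP0 and RPLP2 were lost. Apart from that of RPL10, the calls that edgeR made for these genes with all libraries and no correction were lost with scaling to library totals and without the second GFP DMSO library. In the latter case, the edgeR adjusted p ran from 0.0612 for RPLP1 to 0.492 for RPLP2. Without the second SMARCB1 DMSO library, all but RPL10 and RPS13 were lost.

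Paralogues did not move as one. Of the 6 tested, RPL39L and RPS27L were called higher and RPL22L1 lower, and RPL7L1, RPL26L1 and RPL36AL were not called, at -0.09, 0.10 and -0.06. RPL39L, a relative of the exit tunnel protein RPL39 best known from male germ cells, had the largest difference of all members. The SMARCB1 line had 11.5 and 10.3 CPM with DMSO and 9.75 and 8.87 CPM with Dox. The GFP line had 5.74 and 4.51 CPM with DMSO and 5.07 and 5.44 CPM with Dox. Every SMARCB1 library lay above every GFP library. The log2 fold change of RPL39L without Dox was 1.09 ± 0.154 (edgeR adjusted p = 7.37e-06), and it was called under all 13 alternatives, at 0.92 to 1.27. On Dox it was -0.23 ± 0.146 in the SMARCB1 line and was not called (edgeR adjusted p = 0.355).

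RPL22L1 moved the other way. Its values without Dox, 35.3 and 34.2 CPM against 45.1 and 43.7 CPM, did not overlap. The log2 fold change was -0.35 ± 0.0894 (edgeR adjusted p = 0.00391), and RPL22L1 was called lower under all 13 alternatives. RPL22L1 was also the 1 gene lower in every SMARCB1 than in every GFP library. RPL22 itself was at 88.7 and 95 CPM against 85.8 and 86.6 CPM, a change of 0.09 (edgeR adjusted p = 0.413). RPS27L, a p53-responsive relative of RPS27, measured 51.6 and 55.2 CPM against 44.5 and 41.3 CPM, a change of 0.32 ± 0.0842 (edgeR adjusted p = 0.0058), which was lost with scaling to library totals and without the second library of either group.

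The share of a paralogue in its pair puts both genes of one library on a common base and does not depend on scaling. Per transcript length, RPL22L1 made up 29.1% ± 1.41 (SD, n = 2) of RPL22L1 plus RPL22 with DMSO and 29.4% ± 2.69 with Dox in the SMARCB1 line. In the GFP line these shares were 35.8% ± 0.707 and 35% ± 0.424. The lines did not overlap. In the SMARCB1 line, Dox and DMSO differed by less than the spread, with 30.1% and 28.1% against 31.3% and 27.5%, and the GFP libraries had 36.3% and 35.3% with DMSO and 35.3% and 34.7% with Dox. RPL39L made up 6.6% ± 0.665 of its pair with DMSO and 6.29% ± 0.679 with Dox in the SMARCB1 line, and 3.74% ± 0.516 and 3.93% ± 0.368 in the GFP line. Again the lines did not overlap. RPL7L1 was at 5.24% ± 0.0707 in SMARCB1 DMSO and 6.42% ± 0.134 in GFP DMSO, with SMARCB1 Dox at 5.74% ± 0.509 between them. RPL7L1 is known from ribosome assembly rather than as a part of the mature ribosome.

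The other pairs had like shares in all groups. RPL26L1 made up 5.78% to 6.24% of its pair as a group mean, RPL36AL 37.6% to 40.1% and RPS27L 9.72% to 9.96%. RPS27L and RPS27 were thus both higher in the SMARCB1 line with little change in their ratio. Shares depend on the length used. In unscaled counts, RPS27L made up 65.1% to 65.8% of its pair and RPL7L1 16.8% to 20%, since both have long transcripts, and RPL39L made up 11.7% in SMARCB1 DMSO and 6.78% in GFP DMSO. RPL22L1 made up 27.4% and 34% there.

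**Figure D5:**
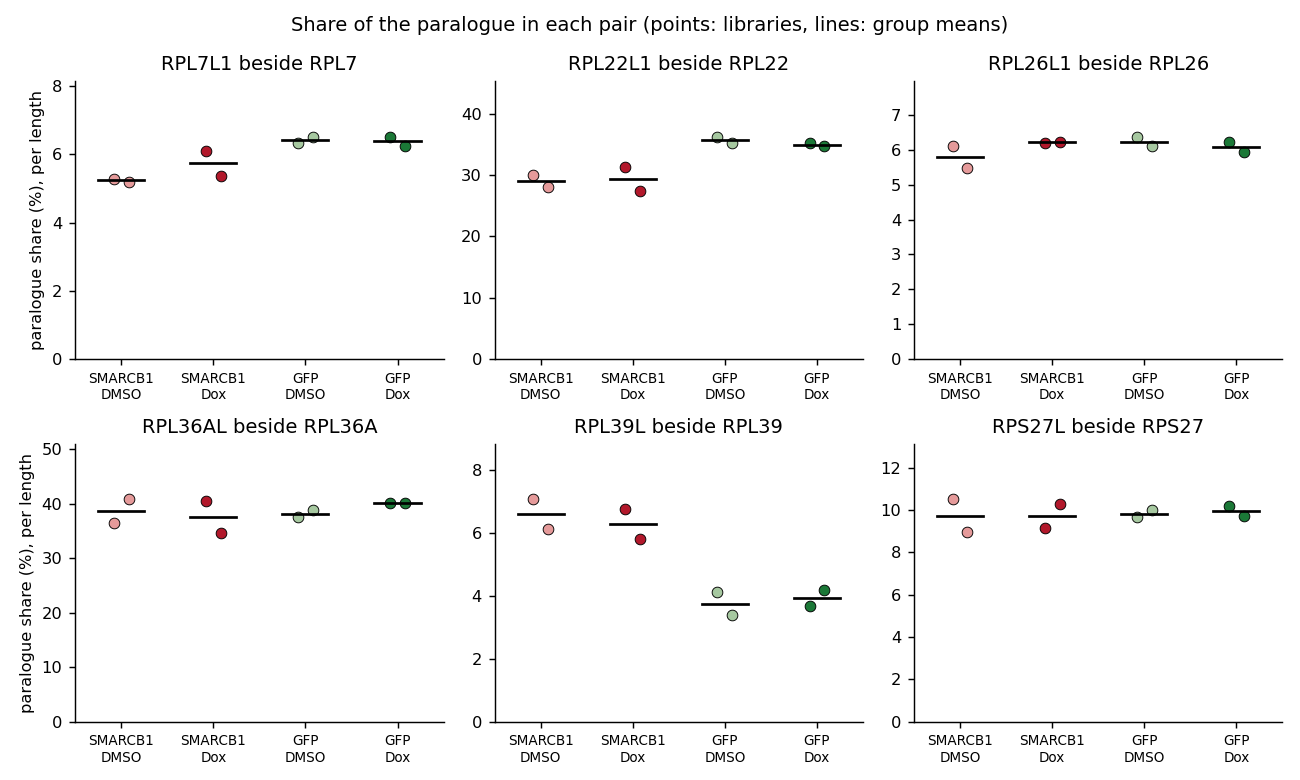
Share of the paralogue in counts per transcript length of the paralogue plus its partner (y axis, %, each panel from 0) in the 4 groups (x axis) for the 6 pairs tested. Points are libraries and lines group means. For RPL22L1 the SMARCB1 groups lie at 29.1% and 29.4% and the GFP groups at 35.8% and 35%, and for RPL39L at 6.6% and 6.29% against 3.74% and 3.93%.

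Some ribosomal constituents carry other names. FAU encodes a ubiquitin-like fusion with the entry channel protein eS30, and RACK1 a scaffold on the small subunit. FAU was at 84.3 to 99.2 CPM and RACK1 at 1070 to 1260 CPM over the 8 libraries. Between the lines they differed by 0.08 and 0.17, and neither was called (edgeR adjusted p = 0.52 and 0.1). Of the ribosomal protein pseudogenes, 166 could be tested between the lines, and 21 (12.7%) were higher and 2 (1.2%) lower with a median of 0.35, where 16.3% and 15.7% of all genes were. The pseudogene median was 0.528 without the first SMARCB1 DMSO library and 0.156 without the second. It was 0.466 without the first GFP DMSO library and 0.25 without the second. Only without the first SMARCB1 DMSO library was a larger share of pseudogenes than of all genes called higher. How far reads of a gene were placed on its copies was not tested.

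Other genes that carry TOP tracts include those of translation factors and partners of the ribosome, and also VIM and HNRNPA1, which are neither. Of 17 listed, 7 (41.2%) were called higher and 1 (5.88%) lower between the lines, where 16.3% and 15.7% of all genes were, with a median of 0.18. Their median was 0.247 without the first SMARCB1 DMSO library and 0.087 without the second. It was 0.164 without the first GFP DMSO library and 0.234 without the second. Fewer were called in the last 3 of these fits, and without the second GFP DMSO library their share called higher was near that of all genes. On Dox in the SMARCB1 line edgeR called 0 of the 17, against 8.33% and 5.69% of all genes. VIM, the intermediate filament gene, was the highest, at 1250 and 1310 CPM against 678 and 736 CPM, a log2 fold change of 0.86 (edgeR adjusted p = 2.73e-08). NACA, the alpha subunit of the nascent chain complex, was at 0.34, and TPT1 at 0.28. EIF3F, a subunit of the initiation factor eIF3, was the 1 lower gene, at 245 and 266 CPM against 437 and 444 CPM and with a change of -0.79 (edgeR adjusted p = 5.37e-08). With the GC and length correction, NACA was called lower on Dox in the SMARCB1 line, at -0.3 (edgeR adjusted p = 0.00967). With a replicate block added to this correction, EIF3F was called lower there too, at -0.19 (edgeR adjusted p = 0.0432). Of 13 genes that regulate TOP mRNAs, 2 (15.4%) were higher and 2 (15.4%) lower between the lines, close to the share of all genes. EIF4EBP1, which encodes an inhibitor of cap-dependent initiation, was at 0.65, TSC1, a brake on mTORC1, at 0.27, LARP4 at -0.32 and the mTORC1 subunit gene RPTOR at -0.29. Without the second GFP DMSO library TPT1, TSC1 and RPTOR were lost, at edgeR adjusted p of 0.146, 0.129 and 0.304, and TPT1, TSC1 and NACA were lost with scaling to library totals. Without the first SMARCB1 DMSO library, RPTOR was at -0.14 (edgeR adjusted p = 0.394) and TSC1 at 0.23 (edgeR adjusted p = 0.0953). RPTOR was also lost after the GC and length correction (edgeR adjusted p = 0.267). On Dox 1 of the 13 was called in the SMARCB1 line. RPS6KB1, the kinase of ribosomal protein S6, fell from 76.0 and 76.3 CPM to 57.0 and 61.4 CPM, a change of -0.36 (edgeR adjusted p = 0.00357), and was lost without the first SMARCB1 Dox library (edgeR adjusted p = 0.0545).

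In the assembly lists, more genes were called lower than higher between the lines, where 15.7% of all genes were lower and 16.3% higher. Of 35 small subunit assembly genes, 11 (31.4%) were called lower and 2 (5.71%) higher, with a median of -0.10. Of 39 large subunit assembly genes, 8 (20.5%) were lower and 1 (2.56%) higher, with a median of -0.12. The small and large subunit medians were -0.102 and -0.136 without the first SMARCB1 DMSO library and -0.094 and -0.105 without the second GFP DMSO library. In both fits the share of the large subunit list called lower was close to that of all genes. That of the small subunit list was nearer to it than with all libraries. UTP20, RRP12 and UTP23, of the small subunit processome, were at -0.44, -0.42 and -0.39, and DDX24, DDX21 and PES1, of large subunit assembly, at -0.53, -0.37 and -0.35. KRR1 at 0.43, RIOK3 at 0.41 and RSL24D1 at 0.48 were the higher ones. NOLC1, a nucleolar chaperone of snoRNPs, was the 1 of 10 snoRNP genes called, at 149 and 157 CPM against 215 and 245 CPM and -0.59. Of 15 genes of RNA polymerase I transcription, TAF1D was higher at 0.35, and POLR1A at -0.39 and POLR1B at -0.27 were lower. Without the second GFP DMSO library POLR1A and TAF1D were lost, at edgeR adjusted p of 0.097 and 0.152, and POLR1B was lost without the first (0.0956) or without the second SMARCB1 DMSO library (0.0737). TAF1D was also lost without the first SMARCB1 DMSO library, at edgeR adjusted p = 0.221. No chaperone of single ribosomal proteins was called among 8 by edgeR.

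On Dox in the SMARCB1 line, few assembly genes were called, where 8.33% of all genes were higher and 5.69% lower. DIMT1, an 18S rRNA methyltransferase, fell from 91.9 and 86.7 CPM to 62.2 and 65.0 CPM, a log2 fold change of -0.49 (edgeR adjusted p = 1.91e-04). KRR1, a small subunit processome component, fell from 160 and 148 CPM to 114 and 109 CPM, a change of -0.46 (edgeR adjusted p = 4.0e-04). These were the 2 called of 35, and both stayed called under all 13 alternatives. DDX24 rose by 0.45, as the 1 called of 39. POLR1B fell by 0.28 and TAF1D by 0.31 of the 15 polymerase I genes, whose median was -0.18. NOP10 fell by 0.31 as the 1 called of 10 snoRNP genes, and PDCD2, a chaperone of RPS2, fell by 0.27 as the 1 called of 8. PDCD2 went from 61.9 and 56.6 CPM to 50.1 and 48.3 CPM (edgeR adjusted p = 0.0338). Without the first SMARCB1 DMSO library DDX24, POLR1B, TAF1D, NOP10 and PDCD2 were no longer called, at edgeR adjusted p between 0.0925 and 0.493, and in these lists DIMT1, KRR1 and 1 polymerase I gene, neither POLR1B nor TAF1D, were lower and 0 genes higher, against 3.19% and 5.58% of all genes. Each of these 5 was also lost without 1 or both of the SMARCB1 Dox libraries. In the GFP line, edgeR called 0 genes in all 7 lists.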

How the data were processed

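Raw read counts per gene were deposited for 8 libraries. Per the labels and the study's methods, the authors aligned reads with STAR to hg38 and counted them over exons with HTSeq in intersection-strict mode on GENCODE v42. Tool versions and the strand option are not given in the sources used here. The labels name a ribosome profiling kit and the methods a directional RNA kit for these libraries, so their chemistry is uncertain. The 5 entries that name no gene held 27% to 29.3% of reads and were left out. Symbols and lengths came from GENCODE v44 on GRCh38, which matched 62625 of 69215 identifiers, and start sites from RefSeq (GRCh38.p14), which gave a start for 68 of the 85 members. Some items are not reported here.

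Counts were tested with edgeR 4.0.16 (R 4.3.3), with its default expression filter and TMM factors. All 8 libraries entered 1 quasi-likelihood model with a mean for each group. P-values were Benjamini-Hochberg adjusted over all 15931 genes tested. Alternatives were DESeq2 1.42.0, other scalings and filters, a GC and length correction, a replicate block and omission of each library. The counts and medians of the lists, pseudogenes and core splits without single libraries were added after the data were seen. Replicates differed by more than sampling noise, with a chi-square per gene of 8.01 to 21.9. On simulated counts for SMARCB1 Dox against SMARCB1 DMSO (15931 genes, 200 changed), 92% of 1.5-fold and 100% of 2-fold changes were recovered, with 15 false calls. The changed genes were drawn from those above 5 CPM. Changes under 1.5-fold, such as those of the members on Dox, were not simulated.

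Members and lists were chosen with earlier results of these data known. Named genes were the paralogue pairs, per comparison the up to 5 called members of largest change each way with at least 5 CPM and groups that do not overlap, the 3 highest and 3 lowest per length, fixed role groups, and up to 3 called genes each way per list. RPL35A and RPL34 were named after their values were seen.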

Additional observations from a re-analysis of the deposited data

Results flagged for a closer look

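The Dox effect differed between the lines for 2 genes of the assembly lists, by the test of the difference itself. The Dox effect on DIMT1 was -0.49 with SMARCB1 and 0.05 with GFP, a difference of -0.54 on the log2 scale (edgeR adjusted p = 0.00564). It was at 83.2 and 82.2 CPM in GFP DMSO and 88.8 and 82.8 CPM in GFP Dox. Without the first GFP Dox library, the difference no longer passed the test (edgeR adjusted p = 0.0576). KRR1 was -0.46 and -0.02, a difference of -0.44 (edgeR adjusted p = 0.0258). It was at 118 and 109 CPM in GFP DMSO and 115 and 109 CPM in GFP Dox, close to its level in SMARCB1 Dox. The KRR1 difference no longer passed with scaling to library totals or without any 1 of 6 of the 8 libraries, at edgeR adjusted p between 0.0517 and 0.188. No ribosomal protein gene was called for this difference. Groups of 2 libraries were too small for a check of single outlying libraries.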

How the results depend on the processing

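On Dox in the SMARCB1 line, the 1 gene called became 0 with scaling to library totals, without the expression filter and with only the 4 libraries compared, and 0 to 3 when single libraries were left out. The median of -0.026 became 0.066 with scaling to totals. Between the lines, the 44 genes called became 4 with scaling to totals and 6 to 43 when single libraries were left out, and the median of 0.222 became 0.106 with scaling to totals. The cause was not tested for any of these. The share of counts in ribosomal protein genes without mitochondrially encoded genes was 3.2% in GFP DMSO, 3.21% in GFP Dox, 3.61% in SMARCB1 DMSO and 3.6% in SMARCB1 Dox. TOP starts within 5 bases reached 80.9%. With a replicate block, 4 genes were called on Dox in the SMARCB1 line, adding RPL22L1, RPL34 and RPL35A, and with the block and a GC and length correction 2 were, adding RPS29. Between the lines the block gave 58, including all 44, and added RPS2, RPS3, RPL4 and RPL17. Correlations of deviations of same-numbered libraries were weak and all positive, from 0.031 to 0.148. Whether same-numbered libraries were handled together is not given and cannot be told from these values. For single named genes, 3076 values kept their direction and side of the threshold, 133 lost a call, 35 gained one and none reversed. No member was called in the GFP line or for the difference between Dox effects under any alternative.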
